A study of Mus musculus with 16 samples.

Results

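Dusp4, Dusp5, Dusp6, Spry1, Spry2, Spry4, Spred1, Spred2, Etv4 and Etv5 are 10 genes whose transcripts are read as a report of ERK output below the receptor ErbB2. Every probe that the platform annotation assigns to them was taken from the table of non-normalized intensities, which gave 16 of its 25697 probes. These 16 probes cover 9 of the 10 genes, and no probe was assigned to Dusp5 in the annotation used here. A filter on brightness left 10 of the 16 probes, for 6 genes, among 12848 probes in all. The 6 genes are Dusp4 and Dusp6 (3 probes each) and Spred1, Spred2, Etv4 and Etv5 (1 probe each).

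The cells were TUBO, a line grown from a mammary carcinoma of a BALB-neuT mouse. In these mice the mouse mammary tumour virus promoter drives an activated rat ErbB2 (neu) transgene in mammary epithelium, so all groups share that oncogene and 1 genetic background. Cells were transfected by Lipofectamine with a hairpin inhibitor at 200 nM, and biotin-labelled cRNA from 16 samples was read on Illumina bead arrays that sat on 2 chips. The groups were anti-miR-135b at 24 h (n = 2) and its negative control hairpin, labelled scrambled, at 24 h (n = 2), then anti-miR-135b at 48 h (n = 3) and control at 48 h (n = 3), and anti-miR-135b at 72 h (n = 3) and control at 72 h (n = 3). The hairpin is meant to block miR-135b, and the comparison asks which transcripts shift when that microRNA is silenced. No label says whether the samples of a group were separate cultures or transfections, so p-values measure the spread between these samples, which may be technical. All samples come from 1 line.

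ErbB2 signals through Ras, Raf and MEK to the kinase ERK, and ERK in turn raises the transcripts of its own brakes. Dusp4, Dusp5 and Dusp6 encode phosphatases that remove phosphate from ERK, in the nucleus for Dusp4 and Dusp5 and in the cytoplasm for Dusp6. Sprouty and Spred proteins damp the pathway at the level of Ras and Raf, and Etv4 and Etv5 are ETS transcription factors of the PEA3 group that carry the signal to target genes.

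The promoters of Dusp6 and Spred1 are shown because these 2 genes had the most similar profiles among the members over the arrays. RefSeq promoters were used for 7 of the 10 genes. Each sequence runs 5′ to 3′ on the gene's strand from 250 bases before to 50 bases after the transcript start in GRCm38.p6, and capitals mark the ETS core GGAA on either strand, which reads as TTCC on the other.
Dusp6, chr10:99262981-99263280, plus strand: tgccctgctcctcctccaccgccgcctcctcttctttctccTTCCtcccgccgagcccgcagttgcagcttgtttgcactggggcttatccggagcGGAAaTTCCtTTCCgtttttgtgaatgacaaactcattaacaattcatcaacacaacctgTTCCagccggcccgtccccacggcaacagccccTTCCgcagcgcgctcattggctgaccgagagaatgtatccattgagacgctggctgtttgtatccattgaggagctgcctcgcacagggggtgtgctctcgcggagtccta
Spred1, chr2:117120821-117121120, plus strand: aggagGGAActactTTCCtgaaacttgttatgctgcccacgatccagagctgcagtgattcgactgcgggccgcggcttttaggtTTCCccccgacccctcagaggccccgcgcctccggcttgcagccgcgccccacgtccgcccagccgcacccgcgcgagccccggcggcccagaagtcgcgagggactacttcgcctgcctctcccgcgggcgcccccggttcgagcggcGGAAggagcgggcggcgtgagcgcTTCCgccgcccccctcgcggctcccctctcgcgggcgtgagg
The Dusp6 window holds 6 matches to the core and the Spred1 window 5. Of all 32851 promoters in the table, 96% hold at least 1 match with a median of 3 matches, 28.6% hold 5 or more and 15.7% hold 6 or more. Neither window holds the longer ETS core CCGGAA (found in 14.9% of all promoters), the cyclic AMP element TGACGTCA (1.79%), the AP-1 site TGANTCA (7.81%) or the CArG box bound by serum response factor (1.63%), searched on both strands. The CCGGAA search also counts within GGAA matches. A match describes letters in the window and not a bound site.

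Array medians of the deposited intensities ranged from 281.2 to 346.8 and upper quartiles from 375.8 to 529.4. The median correlation of each array with the others was 0.92 to 0.95. Of 10 mammary epithelial marker genes with a probe, 9 passed the brightness filter and Krt19 did not, whereas 0 of 9 leukocyte, 3 of 11 genes of fibroblasts or endothelium and 2 of 5 of adipocytes passed. The mean level was 6.73 to 7.07 over the arrays for the leukocyte genes. For the 10 epithelial genes it was 10.59 to 10.60 under anti-miR-135b and 10.40 to 10.68 in controls at 24 h. At 48 h it was 10.69 to 10.91 under anti-miR-135b and 10.55 to 11.04 in controls, and at 72 h 10.77 to 11.06 under anti-miR-135b and 10.84 to 11.04 in controls. Chip 1 held the 24 h controls and all 48 h samples, and chip 2 held the 24 h anti-miR-135b samples and all 72 h samples. Levels below are log2 values after background correction and quantile normalization, and differences are differences of these log2 values. Fewer cells of a type and less RNA per cell cannot be told apart in such bulk RNA.

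**Figure D1:**
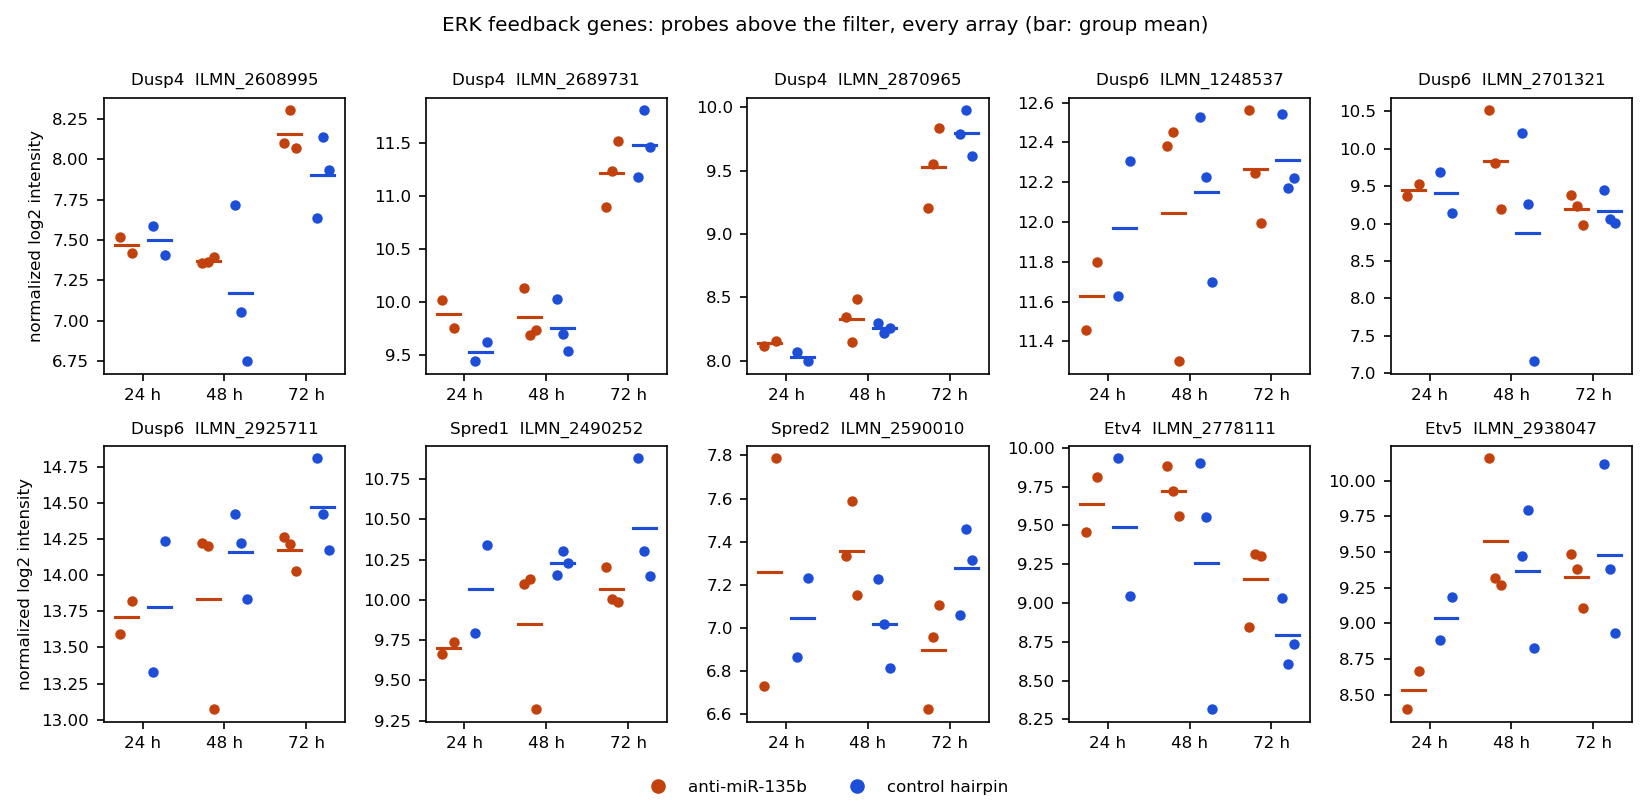
Normalized log2 intensity (vertical axis, own scale per panel) of the 10 member probes above the brightness filter, by time in h, with anti-miR-135b in orange-red to the left of control in blue; points are arrays and bars are group means. The 72 h samples of both arms stand above all other samples for the Dusp4 probes ILMN_2689731 and ILMN_2870965, and at 72 h the arms overlap in all 10 panels.

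Dusp4, the nuclear ERK phosphatase, gave the clearest pattern among the members. It followed time. Within a chip, time cannot be told apart from position, and between 48 and 72 h it cannot be told apart from the chip. The Dusp4 level was higher at 72 h than at 24 h under anti-miR-135b, 2.51-fold and 2.63-fold in its 2 brighter probes. It did not differ detectably between the arms at 48 or 72 h. Probe ILMN_2689731 read 10.02 and 9.76 under anti-miR-135b at 24 h, against 9.45 and 9.63 in controls. At 48 h it read 10.14, 9.69 and 9.74 under anti-miR-135b, against 10.03, 9.70 and 9.54 in controls. At 72 h it read 10.90, 11.23 and 11.52 under anti-miR-135b, against 11.18, 11.81 and 11.46 in controls. All 6 samples at 72 h lay above all 10 earlier samples, and the arms interleaved at 48 and 72 h.

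Probe ILMN_2870965 of Dusp4 repeated this order. It read 8.11 and 8.16 under anti-miR-135b at 24 h, against 8.07 and 8.00 in controls. At 48 h it read 8.35, 8.15 and 8.49 under anti-miR-135b, against 8.30, 8.22 and 8.26 in controls. At 72 h the values were 9.21, 9.55 and 9.84 under anti-miR-135b, against 9.79, 9.98 and 9.62 in controls. Again the 6 samples at 72 h stood clear of the other 10. The 2 probes gave an r of 0.97 over the 16 arrays, and their residuals from the group means an r of 0.58.

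The third Dusp4 probe, ILMN_2608995, was dimmer and spread over a narrower range. Its group means were 7.47 ± 0.07 (SD, n = 2) under anti-miR-135b and 7.50 ± 0.13 (n = 2) in controls at 24 h, and 7.37 ± 0.02 and 7.17 ± 0.49 at 48 h (n = 3 each). At 72 h they were 8.16 ± 0.13 under anti-miR-135b and 7.90 ± 0.25 in controls (n = 3 each). The 3 anti-miR-135b samples at 72 h lay above all samples of 24 h, while 1 control sample at 48 h, at 7.72, reached above the lowest control of 72 h, at 7.63.

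Samples of 72 h and 24 h under anti-miR-135b shared 1 chip, which allowed a test of time. In limma with Benjamini-Hochberg adjustment over all 12848 probes, 2 of the 10 member probes were higher at 72 h and 0 were lower, where 4.2% of all probes were called higher, 3.77% lower and 7.98% in either direction. Both were Dusp4 probes. ILMN_2870965 rose by 1.40 (SE 0.21, 95% interval 0.95 to 1.84), a 2.63-fold difference with an adjusted p of 0.0014 in limma. ILMN_2689731 rose by 1.33 (SE 0.25, 95% interval 0.81 to 1.84), a 2.51-fold difference with an adjusted p of 0.0044. The dimmer probe ILMN_2608995 gave 0.68 (SE 0.25) with an adjusted p of 0.095 in limma and did not pass. All 5 arrays of this comparison showed the same direction for all 3 probes, with no overlap between 72 and 24 h.

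The 24 h samples took the last positions of the chip, and position cannot be told apart from time. Without replicate 12 of the 24 h anti-miR-135b samples ILMN_2689731 gave 1.19 with an adjusted p of 0.11 in limma while ILMN_2870965 kept an adjusted p of 0.047. The epithelial marker level of the same samples was 10.77 to 11.06 at 72 h and 10.59 to 10.60 at 24 h, with 3 of 9 markers called higher and 1 lower, and its part in the Dusp4 result was not tested.

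Between the arms, ILMN_2689731 differed by 0.10 at 48 h (SE 0.22, 95% interval -0.36 to 0.56) and by -0.27 at 72 h (SE 0.22, -0.73 to 0.20), with limma adjusted p of 0.97 and 0.82. ILMN_2870965 gave 0.07 (-0.33 to 0.47) and -0.26 (-0.66 to 0.14), and ILMN_2608995 gave 0.20 (-0.27 to 0.66) and 0.26 (-0.21 to 0.72) at the same times. At 72 h the dimmer probe thus had the opposite sign to the brighter pair, and all 6 intervals include 0.

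In controls the step from 24 to 48 h lay within chip 1, and no Dusp4 probe passed the threshold in it. ILMN_2689731 gave 0.22 (SE 0.25), ILMN_2870965 0.23 (SE 0.21) and ILMN_2608995 -0.32 (SE 0.25), with limma adjusted p of 0.78, 0.72 and 0.65. The ILMN_2870965 samples of 48 h lay above those of 24 h without overlap, where 28.8% of all probes did not overlap in either direction. Over the alternatives with no sample left out, ILMN_2689731 ranged from 0.14 to 0.86 and ILMN_2870965 from 0.11 to 0.59, and neither passed. The control step from 48 to 72 h runs across the chips and was not tested. In the deposited intensities, before any normalization, ILMN_2689731 read 6.16, 9.78 and 9.45 times the median of its array under anti-miR-135b at 72 h, against 4.55 and 3.08 times at 24 h. In controls it read 5.55, 10.6 and 8.93 times the array median at 72 h, 6.43, 3.96 and 3.88 times at 48 h, and 2.78 and 2.60 times at 24 h. Without quantile normalization, control replicate 4 at 48 h therefore lay above control replicate 7 and anti-miR-135b replicate 16 at 72 h. The anti-miR-135b samples of 72 and 24 h stayed apart. On this scale the 48 h controls also lay above the 24 h controls. The same held for ILMN_2870965, at 1.94, 1.65 and 1.74 times the array median at 48 h and 1.39 and 1.27 times at 24 h.

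Dusp6, the cytoplasmic ERK phosphatase, was among the brightest transcripts on the arrays, and its main probes differed more between replicates than between groups. Probe ILMN_2925711 stood at the 99.7th percentile of probe means and ILMN_1248537 at the 98.4th, ranks of brightness that depend on the probe. ILMN_2925711 read 13.60 and 13.82 under anti-miR-135b and 13.33 and 14.23 in controls at 24 h. At 48 h it read 14.22, 14.20 and 13.07 under anti-miR-135b, against 14.42, 14.22 and 13.83 in controls. At 72 h it read 14.26, 14.22 and 14.03 under anti-miR-135b, against 14.81, 14.42 and 14.18 in controls. The lowest value of all 16 was replicate 15 of the 48 h anti-miR-135b group, and at each time the arms overlapped after normalization. Over the array median, before normalization, this probe read 53.5, 76.08 and 23.7 times under anti-miR-135b at 48 h. The 48 h controls read 111.8, 86.0 and 76.10 times, just clear of the other arm. ILMN_1248537 ranged from 11.30, on that same array, to 12.56 in replicate 16 of the 72 h anti-miR-135b group.

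The inhibitor differences of ILMN_2925711 were -0.33 at 48 h (95% interval -0.95 to 0.30) and -0.30 at 72 h (-0.92 to 0.32), with limma adjusted p of 0.89 and 0.86. ILMN_1248537 gave -0.11 (-0.73 to 0.52) at 48 h and -0.04 (-0.67 to 0.58) at 72 h, with limma adjusted p of 0.97 and 0.99. None of the 4 values is larger than the spread between replicates, and the intervals of ILMN_2925711 reach down to -0.95. Over the alternatives with no sample left out, the 48 h difference ranged from -0.91 to -0.01 for ILMN_2925711 and from -0.73 to 0.06 for ILMN_1248537. From 24 to 72 h under anti-miR-135b the same probes gave 0.46 and 0.64 with limma adjusted p of 0.45 and 0.26. From 24 to 48 h in controls ILMN_2925711 gave 0.38 with an adjusted p of 0.70. With median scaling in place of quantile normalization that control step was 1.23 with a limma adjusted p of 0.037, in a setting where the median of all probes stood at 0.32.

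The dimmest Dusp6 probe, ILMN_2701321, did not follow the other pair. It read 9.36 and 9.53 under anti-miR-135b, against 9.69 and 9.14 in controls, at 24 h. The 48 h samples gave 10.52, 9.81 and 9.20 under anti-miR-135b, against 10.21, 9.26 and 7.16 in controls. At 72 h the values were 9.38, 9.24 and 8.98 under anti-miR-135b, against 9.46, 9.06 and 9.01 in controls. The control value of 7.16, in replicate 6, is the lowest of the 16 by a wide margin, and the other Dusp6 probes read 13.83 and 11.70 on that array.

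Its inhibitor difference at 48 h, 0.96 (SE 0.50, limma adjusted p 0.8), was the largest among the members and was 0.11 when that array was left out. Over the 16 arrays ILMN_2701321 had an r of 0.17 with ILMN_2925711, whereas ILMN_1248537 and ILMN_2925711 had an r of 0.91 with each other. Its r with the Etv4 probe was 0.78 (Spearman's rho 0.78), and 0.69 without the 2 arrays farthest from its median. The 3 probes are assigned to the same gene, and which of them tracks its RNA best was not tested.

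Sprouty transcripts read near or below the middle of each array, too dim for the main test. All 4 probes for Spry1, Spry2 and Spry4 fell below the brightness filter, with brightness percentiles of 7.2 and 21.3 for Spry1, 13.9 for Spry2 and 46.2 for Spry4. The Spry1 probe ILMN_1230525 and the Spry2 probe ILMN_2749464 read below the median intensity of their array on 16 of 16 arrays. The second Spry1 probe, ILMN_2735007, did so on 14 arrays and the Spry4 probe ILMN_2825817 on 10. Deposited intensities spanned 175.5 to 325.2 over the Spry1 probes, 209.4 to 309.7 for Spry2 and 244.4 to 377.5 for Spry4.

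Fitted without the filter, none of these probes was called in any of the 7 contrasts by limma. The Spry4 difference was -0.23 (SE 0.28) at 48 h and -0.33 (SE 0.28) at 72 h, with adjusted p of 0.95 and 0.88 in limma. Spry2, whose product binds regulators of receptor signalling such as Cbl, gave -0.12 (SE 0.27) and -0.40 (SE 0.27) at the same times, with adjusted p of 0.98 and 0.85. The 2 Spry1 probes took opposite signs at 72 h, -0.29 and 0.29 (SE 0.24 each). Signals this close to the array median bound what could be seen, so a change in Sprouty RNA was not detectable at this brightness and is not shown to be absent.

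**Figure D2:**
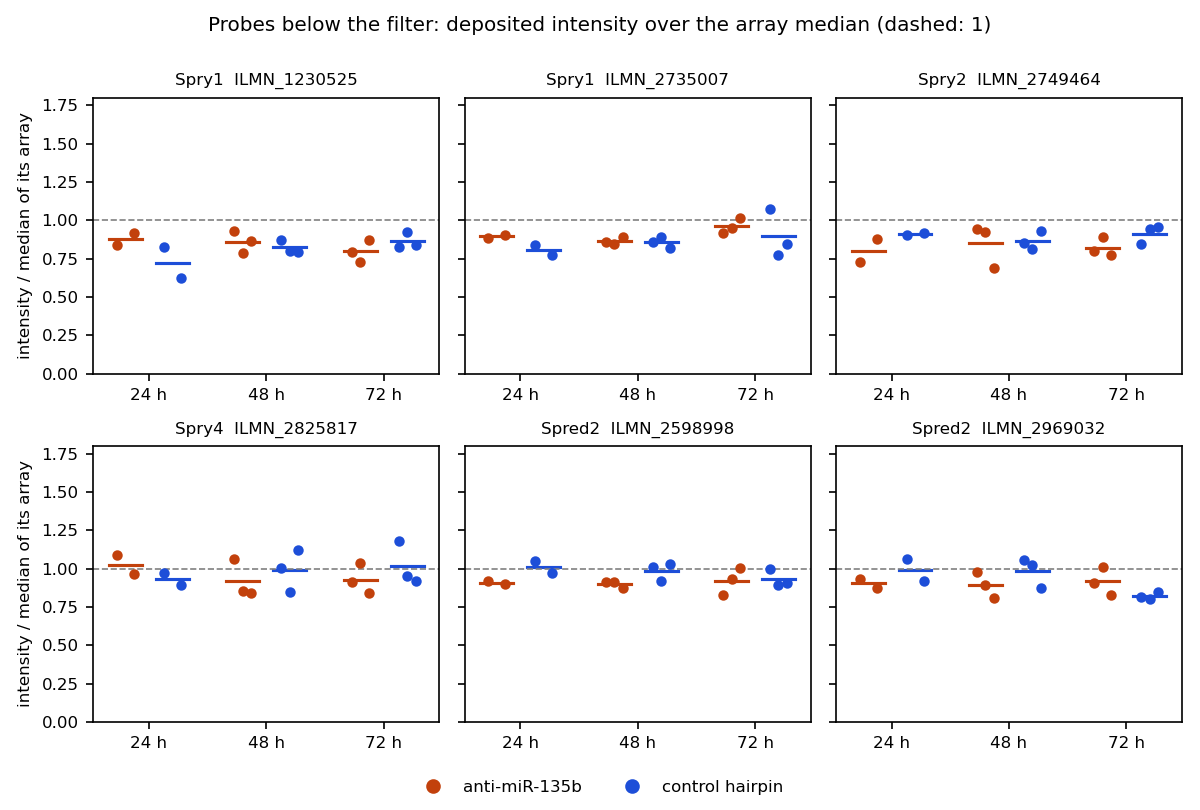
Deposited intensity divided by the median intensity of its array (vertical axis, linear from 0, dashed line at 1) for the 6 member probes below the brightness filter, by time in h, with anti-miR-135b in orange-red to the left of control in blue; points are arrays and bars are group means. Spry1 ILMN_1230525 and Spry2 lie below the dashed line on 16 of 16 arrays, and the 6 probes together span 0.624 to 1.18.

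Spred1, a membrane adaptor that brings neurofibromin to Ras, had the smallest unadjusted p among the members for the inhibitor difference averaged over 48 and 72 h, but it did not pass the adjusted test. It read 9.67 and 9.74 under anti-miR-135b, against 9.80 and 10.34 in controls, at 24 h. At 48 h it read 10.10, 10.13 and 9.32 under anti-miR-135b, against 10.15, 10.30 and 10.23 in controls. At 72 h it read 10.21, 10.01 and 9.99 under anti-miR-135b, against 10.88, 10.30 and 10.15 in controls. The anti-miR-135b samples lay below the controls without overlap at 48 h, with 10.13 and 10.15 as the nearest values, and overlapped at 72 h. They lay below the controls at 24 h too, across chips.

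The Spred1 difference was -0.38 at 48 h (SE 0.24, 95% interval -0.88 to 0.12) and -0.38 at 72 h (SE 0.24, -0.88 to 0.13), with limma adjusted p of 0.83 and 0.77. Averaged over both times it was -0.38 (SE 0.17, 95% interval -0.73 to -0.02), which is 1.3-fold lower, with an unadjusted p of 0.038 and an adjusted p of 0.61 in limma. It was the only member probe with an unadjusted p under 0.05 in that contrast, 1 of 10, where 7.84% of all probes reached this. Without replicate 15 of the 48 h anti-miR-135b group the mean was -0.25 with an unadjusted limma p of 0.14, and without replicate 7 of the 72 h controls it was -0.27 with 0.12. The mean ranged from -0.45 to -0.25 with 1 sample left out and from -0.54 to -0.29 over the other alternatives. It passed the adjusted test in none of them.

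Spred2, the relative of Spred1 with the same action on Ras, lay close to the filter. Its brightest probe, ILMN_2590010, read 6.73 and 7.79 under anti-miR-135b and 6.87 and 7.23 in controls at 24 h. The 48 h samples read 7.33, 7.59 and 7.15 under anti-miR-135b, against 7.23, 7.02 and 6.82 in controls. At 72 h the values were 6.62, 6.96 and 7.11 under anti-miR-135b, against 7.06, 7.46 and 7.31 in controls. The arms overlapped at each time, and the sign differed between 48 h, 0.34 (SE 0.25, limma adjusted p 0.85), and 72 h, -0.38 (SE 0.25, adjusted p 0.77).

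The other Spred2 probes, ILMN_2598998 and ILMN_2969032, fell below the filter and did not share these signs. Without the filter they gave -0.31 and -0.31 at 48 h, and -0.06 and 0.38 at 72 h, with limma adjusted p of 0.83 to 0.99. The 3 Spred2 probes thus gave no common direction at either time.

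Etv4, an ETS factor of the PEA3 group linked in mouse to mammary development and ErbB2 tumours, had its lowest group means at 72 h in both arms, with no change that passed a test. It read 9.46 and 9.81 under anti-miR-135b, against 9.93 and 9.04 in controls, at 24 h. By 48 h the values were 9.88, 9.72 and 9.56 under anti-miR-135b, against 9.90, 9.56 and 8.31 in controls. At 72 h the values were 8.84, 9.31 and 9.30 under anti-miR-135b, against 9.03, 8.61 and 8.74 in controls. The arms overlapped at all 3 times, and under anti-miR-135b the 72 h samples lay below the 24 h samples.

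The inhibitor difference of Etv4 was 0.46 (SE 0.32) at 48 h and 0.36 (SE 0.32) at 72 h, with limma adjusted p of 0.83 at both. Their mean was 0.41 (95% interval -0.07 to 0.89, unadjusted p 0.087, adjusted p 0.68). Without replicate 6 of the 48 h controls, the same array that was low for Dusp6 probe ILMN_2701321, the 48 h difference was -0.01. From 24 to 72 h under anti-miR-135b Etv4 gave -0.48 (SE 0.36, limma adjusted p 0.47).

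Etv5, the closest relative of Etv4, was lowest at 24 h under anti-miR-135b. It read 8.40 and 8.66 under anti-miR-135b and 8.88 and 9.19 in controls at 24 h. The 48 h values were 10.16, 9.32 and 9.27 under anti-miR-135b, against 9.48, 9.79 and 8.83 in controls. At 72 h it read 9.49, 9.38 and 9.11 under anti-miR-135b, against 10.11, 9.38 and 8.93 in controls. The 24 h anti-miR-135b samples were the lowest of the 16, and the arms overlapped at 48 and 72 h.

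From 24 to 72 h under anti-miR-135b Etv5 gave 0.79 (SE 0.34, unadjusted p 0.032) with an adjusted p of 0.17 in limma, and 0.038 when only the groups compared entered the fit. The difference between the arms was 0.21 (SE 0.30) at 48 h and -0.15 (SE 0.30) at 72 h, with limma adjusted p of 0.94 and 0.95. Over the 16 arrays Etv4 and Etv5 had an r of 0.09, and the residuals from the group means had an r of 0.44.

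None of the 10 member probes passed the threshold for a difference between anti-miR-135b and control. At 48 h limma called 0 of 10, with 0% of all 12848 probes called. The differences ran from -0.38 to 0.96 with a median of 0.15 (all probes -0.01), 7 of 10 were positive, and 0 reached an unadjusted p under 0.05, where 6.24% of all probes did. The arms did not overlap in 1 of 10 probes, that of Spred1, against 10.2% of all probes.

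At 72 h limma again called 0 of 10, with 0% of all probes called. The differences ran from -0.38 to 0.36 with a median of -0.21 (all probes -0.01), 3 of 10 were positive, 0 reached an unadjusted p under 0.05 against 7.13% of all probes, and 0 of 10 had arms that did not overlap against 15.1%. Averaged over 48 and 72 h, 0 of 10 were called with 0% of all probes called, and the differences ran from -0.38 to 0.49 around a median of -0.05 (all probes -0.0031). The difference between the 72 h and 48 h inhibitor effects was not called for any of the 10, with 0% of all probes called and a smallest limma adjusted p of 0.85 among the members. No member reached an unadjusted p under 0.05 there, where 5.5% of all probes did.

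**Figure D3:**
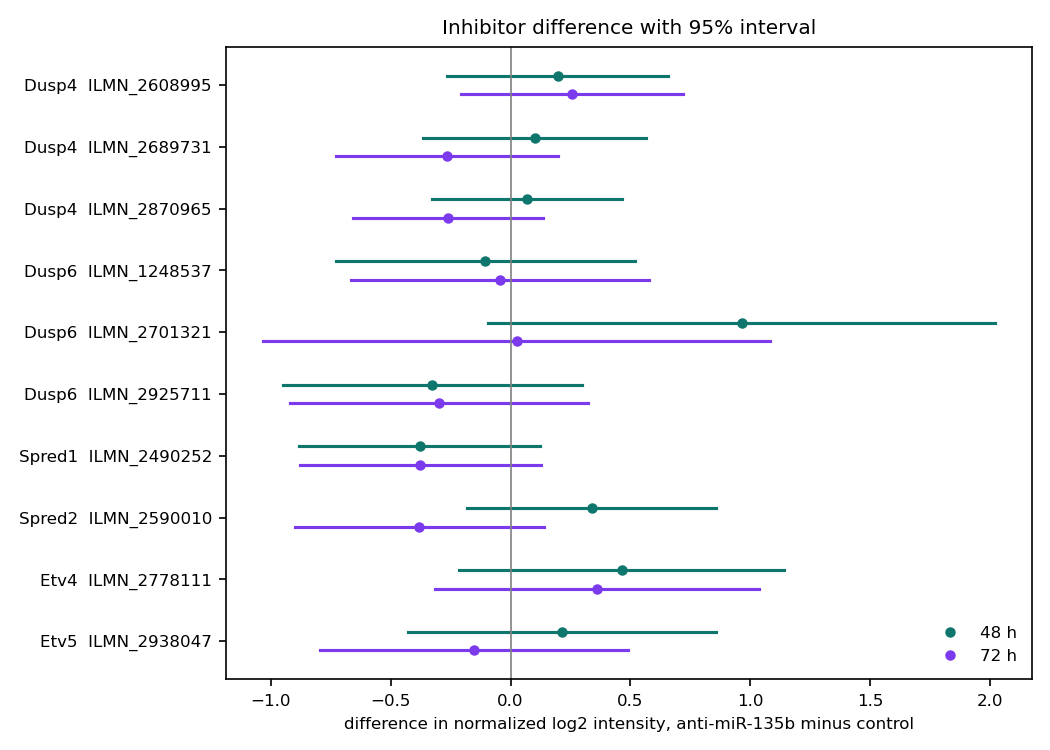
Difference in normalized log2 intensity, anti-miR-135b minus control (horizontal axis), for the 10 member probes above the brightness filter at 48 h (green) and 72 h (violet); points are limma estimates and bars are 95% intervals. All 20 intervals include 0, and the widest belongs to Dusp6 ILMN_2701321.

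At 24 h the arms lay on different chips, and the chip cannot be told apart from the inhibitor. Limma called 0 of 10 member probes, with 0% of all probes called, and the members' differences ran from -0.50 to 0.36. The 2 samples of each arm did not overlap in 4 of 10 probes, where 32.9% of all probes showed this. These were Dusp4 ILMN_2689731 and ILMN_2870965, higher under anti-miR-135b, and Spred1 and Etv5, lower. An unadjusted p under 0.05 was reached by 0 of 10 members, against 4.06% of all probes. From 24 to 48 h in controls, limma called 0 of 10 members against 0.926% of all probes, with differences from -0.54 to 0.38 and no overlap in 1 of 10 against 28.8%. From 24 to 72 h under anti-miR-135b, 8 of 10 member probes had samples that did not overlap against 44.1% of all probes, and 4 of 10 had an unadjusted p under 0.05 against 23.1%. These were the 3 Dusp4 probes and the Etv5 probe, so 3 of the 4 share a gene.

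In the other ERK lists, 5 genes were called lower and 1 higher at 72 h than at 24 h under anti-miR-135b, where 3.77% of all probes were called lower and 4.2% higher. Of 16 other transcripts of ERK output above the filter, 0 rose and 2 fell, with a median difference of -0.23 (all genes 0.03). Egr1, an immediate early transcription factor, fell by 1.96 (SE 0.34) to 11.95 ± 0.43 (SD, n = 3) at 72 h, against 13.91 ± 0.16 (n = 2) at 24 h, with a limma adjusted p of 0.0029. Myc, a growth-promoting transcription factor, fell by 0.95 (SE 0.24) to 7.17 ± 0.13 at 72 h, against 8.12 ± 0.44 at 24 h, with a limma adjusted p of 0.023. The 72 h level of Myc lay close to the filter at 7.1. Over the alternatives with no sample left out, its difference ranged from -1.14 to -0.53. Fos gave -1.12 and Phlda1 -0.90, with limma adjusted p of 0.054 and 0.081. Fos passed under 4 alternatives that kept every sample of the 2 groups compared. These were no background correction (limma adjusted p 0.0474), the 75th percentile filter (0.0455), array weights (0.00936) and only the groups compared (0.0219). Fos also passed without replicate 18 of 72 h (0.0408), and Phlda1 passed without replicate 17 (0.0411).

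Of 13 other feedback and attenuation genes above the filter, 0 rose and 3 fell, with a median of -0.12. Dusp1, a nuclear phosphatase of several MAP kinases, fell by 1.42 (SE 0.30) to 8.47 ± 0.47 (n = 3) at 72 h, against 9.89 ± 0.11 (n = 2) at 24 h, with a limma adjusted p of 0.0083. Socs4, an inhibitor of cytokine and EGF receptor signalling, fell by 0.93 (adjusted p 0.032), and Rasa1, a GTPase activator that switches Ras off, fell by 1.01 (adjusted p 0.045). Rasa2 gave -0.84 with a limma adjusted p of 0.084, and 0.0452 without replicate 17 of 72 h. Dusp4 and Dusp1 therefore lay on opposite sides of 0 in this comparison, with 1.40 for the Dusp4 probe ILMN_2870965 and -1.42 for Dusp1.

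Egr1, Myc, Fos and Dusp1 were also among the genes with the smallest p of their lists in the control step from 24 to 48 h, within chip 1. Socs4, Rasa1 and Cic were not. No gene of these lists passed the threshold in that step. There Egr1 gave -1.30 (SE 0.34, limma adjusted p 0.082), Myc -0.73 (0.18), Fos -0.76 (0.37) and Dusp1 -0.70 (0.33). All 4 had the sign they had from 24 to 72 h under anti-miR-135b, and whether the steps differ was not tested. In the control step 7 of 16 other output transcripts and 6 of 13 other feedback genes were positive. Among these were Emp1 at 1.08 (limma adjusted p 0.23) and Il17rd at 0.58 (0.39), so the 4 signs do not stand for their lists. At 24 h, across chips, the anti-miR-135b samples read higher than controls by 1.27 for Fos, 1.05 for Dusp1 and 0.78 for Egr1, each with a limma adjusted p of 1.

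Among 11 kinase targets of ERK and ETS partners above the filter 1 rose and 0 fell, with a median of -0.14. The 1 was Cic, a repressor of Etv4 and Etv5 that ERK signalling relieves, at 0.96 (SE 0.24, limma adjusted p 0.023). Ets2 gave -0.78, Rps6ka3 -0.48 and Ets1 -0.46, none past the threshold. Of 11 genes of the cascade from ErbB2 to ERK, 0 were called, with a median of -0.15, and the smallest p belonged to Nras at -0.96 (SE 0.41, limma adjusted p 0.17, and 0.0381 with array weights).

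Many calls of this comparison depended on single samples, and 441 probes were called without replicate 16 of 72 h. Leaving out either 24 h sample left 1 in its group, which also lowers the power to call. The fewest calls remained without replicate 12 of the 24 h anti-miR-135b samples. Without it, 25 of 12848 probes were called in place of 1025. Egr1 then gave -1.84 (limma adjusted p 0.0884), Dusp1 -1.34 (0.142) and Socs4 -0.999 (0.209), close to their values with it. Myc gave -0.64 (0.385), Cic 0.70 (0.35) and Rasa1 -0.56 (0.562), each smaller than with it and Rasa1 by over 1.5 times. The Socs4 call was also lost without replicate 17 or 18 of 72 h or replicate 11 of 24 h (limma adjusted p 0.0848, 0.104 and 0.161), and with median scaling or no filter (0.0547 and 0.0543). The Rasa1 call was lost without replicate 16 or 18 (0.104 and 0.131) and with offset 16, median scaling or no filter (0.0562, 0.143 and 0.0644). The Cic call was lost without replicate 16 or 17 (0.0804 and 0.0673) and with median scaling (0.107), and the Myc call without replicate 16 or 17 (0.0631 and 0.069).

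**Figure D4:**
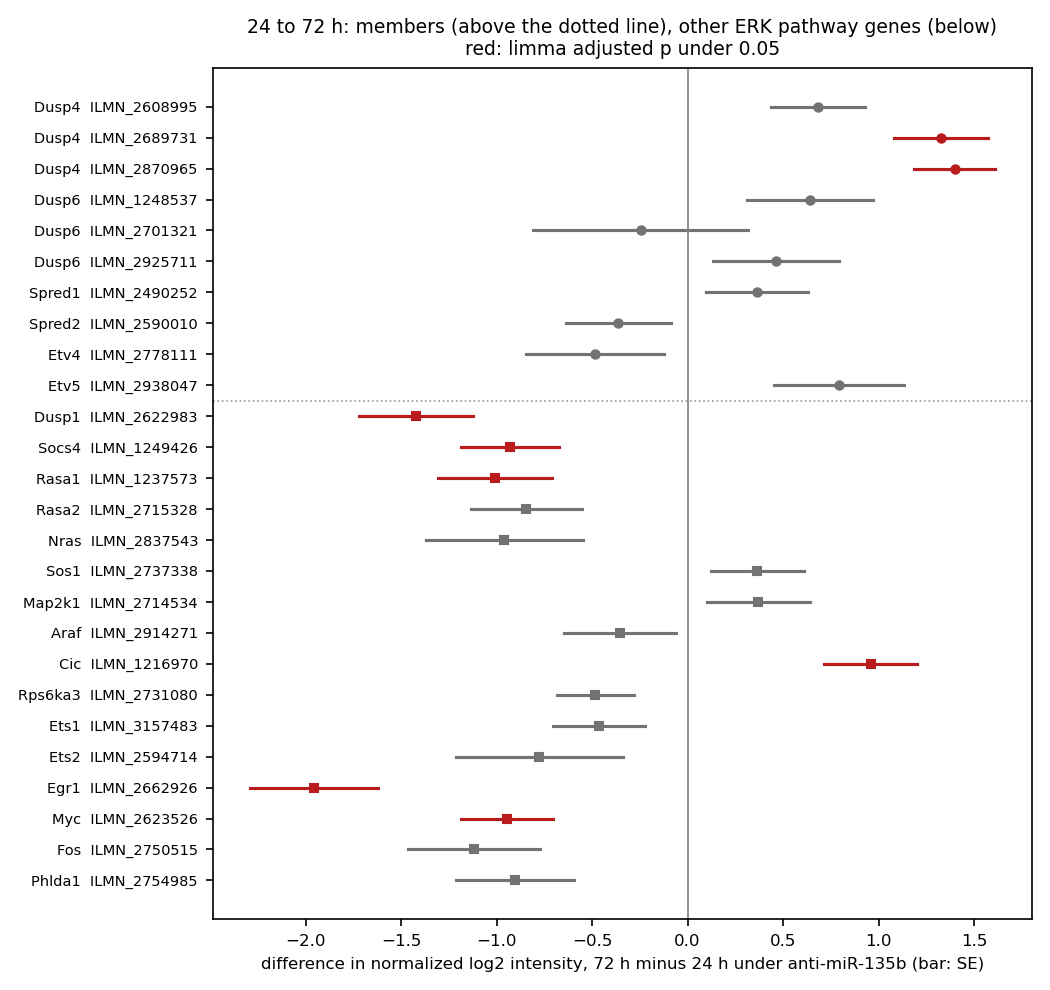
Difference in normalized log2 intensity, 72 h minus 24 h under anti-miR-135b (horizontal axis), for the member probes (circles, above the dotted line) and for up to 4 genes with the smallest p of each other ERK pathway list (squares, below it); bars are SE and red marks a limma adjusted p under 0.05. The Dusp4 probes ILMN_2689731 and ILMN_2870965 lie right of 0, at 1.33 and 1.40, and Dusp1 and Egr1 lie left of it, at -1.42 and -1.96.

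Between the arms, averaged over 48 and 72 h, none of the other ERK lists held a called gene in limma. The feedback and attenuation list had a median of 0.10, the cascade list 0.13, the kinase targets and ETS partners 0.04 and the other output transcripts 0.04, against a median of -0.0044 over all genes. Unadjusted p under 0.05 was reached by 2 of 13, 2 of 11, 0 of 11 and 2 of 16 genes in these lists, where 7.84% of all probes did so. The largest of these differences was Rasa1 at -0.93 (SE 0.19, unadjusted p 0.00011, limma adjusted p 0.19), which passed with array weights (-0.93, adjusted p 0.0366), and the others past that mark were Nf1 at -0.45, Araf at 0.56, Ptpn11 at 0.50, Phlda1 at -0.42 and Hbegf at 0.33. Nf1 encodes neurofibromin, the partner of the Spred proteins. Errfi1 gave 0.46, Rasa2 -0.36, Shc1 0.34, Egfr 0.32 (1 of its 2 other probes had the opposite sign), Mknk2 -0.27, Myc 0.27, Plaur 0.27, Atxn1 -0.18, Mknk1 0.17 and Rps6ka3 -0.12, with limma adjusted p of 0.67 or more.

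The profiles of the members were then compared with each other and with all probes over the 16 arrays. These correlations describe the arrays, which share 2 chips, 6 groups and the brightness of each hybridization. Dusp6 probe ILMN_2925711 and Spred1 had an r of 0.89 (Spearman's rho 0.82), 0.85 without the 2 arrays farthest from the Dusp6 median and 0.88 in the residuals from group means. Among 12845 probes of other genes, Spred1 ranked 2 by likeness to this Dusp6 probe, Etv5 ranked 589 (r 0.61), Dusp4 1176 (r 0.51), Spred2 4143 (r 0.18) and Etv4 9756 (r -0.28). The first named gene by r was Spred1, followed by Adcy9 and Lonp2 at 0.88 each. The r of each member with the upper quartile intensity of the arrays ran from -0.48 for Etv5 to 0.06 for Etv4, and it was -0.13 for this Dusp6 probe and -0.26 for Spred1.

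**Figure D5:**
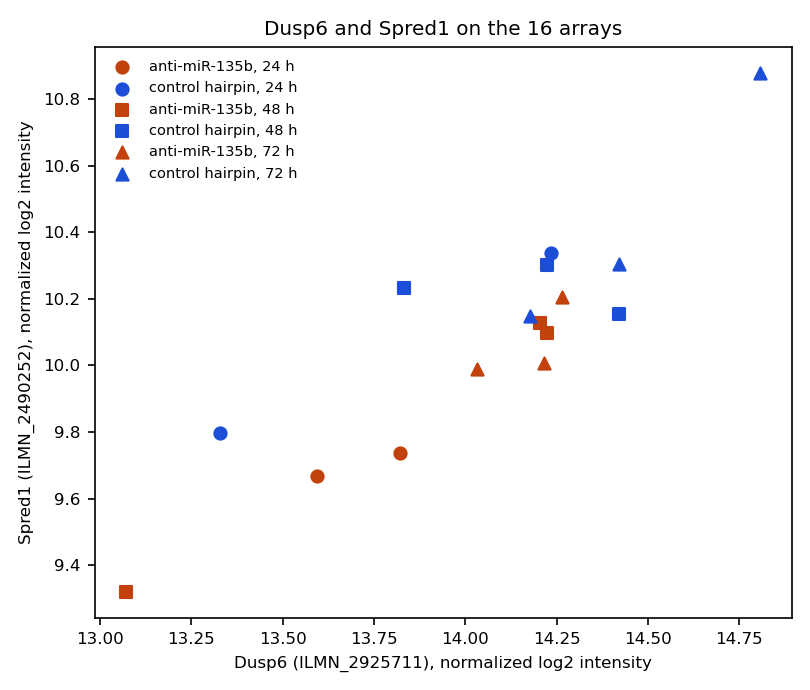
Normalized log2 intensity of Spred1 (vertical axis) against that of Dusp6 probe ILMN_2925711 (horizontal axis) on the 16 arrays, with anti-miR-135b in orange-red, control in blue, and circles, squares and triangles for 24, 48 and 72 h. Replicate 15 of the 48 h anti-miR-135b group is lowest in both, at 13.07 and 9.32, and replicate 7 of the 72 h controls is highest in both, at 14.81 and 10.88.

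For the other members the nearest named genes lay outside the pathway lists, apart from Dusp6 beside Spred1. Dusp4 probe ILMN_2689731 was most like Rras (r 0.95), a Ras-family GTPase, then Scd1 and Mib2 (0.93 each), and in the residuals from group means these fell to 0.74, 0.47 and 0.25. After Dusp6, Spred1 was most like Asah2 (0.88) and Cip2a (0.85). Etv4 was nearest to Carm1 and Rbbp7 (0.90 each) and Abcf1 (0.86), and Etv5 to Mfge8 and Hs3st1 (0.88 each) and Slc29a1 (0.86). The named genes nearest to Spred2 were Oxct1, Tmtc4 and Sbno1, at 0.73, 0.72 and 0.71.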

How the data were processed

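RNA of 16 samples was measured, 1 array each. The deposited non-normalized table holds each array's bead-averaged intensity, which the authors made with GenomeStudio, per the submitters' processing notes, with no version named. A second deposited table gives the authors' processed values on the log2 scale. Its normalization is not stated, and it served only as an alternative. Its column medians lay at 8.24 to 8.26, and all 16 columns ranked the probes most like their own array, which settles the direction but not the normalization.

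From the intensities, limma 3.58.1 (R 4.3.3) corrected background by normexp (saddle, offset 50) and quantile normalized log2 values. Both steps change the differences of dim probes. Probes with a mean above the median of all probes, 7.1, were kept, and each probe stayed separate. The platform annotation gave 1 symbol to 23978 probes and none to 1719. A model with 6 group means, 10 residual and 7.8 prior degrees of freedom gave 7 contrasts. P-values are two-sided, adjusted by Benjamini-Hochberg over all kept probes, with a threshold of 0.05. No detection p-value was used. The number of arrays limits the precision. The chip and position of each array came from the labels. At 48 h and at 72 h both arms shared a chip, and on each chip the controls of a time took earlier positions, and position cannot be told apart from arm.

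The members and the lists were chosen with earlier results of these data known. All member probes are named, and of each other list (feedback and attenuation genes, ErbB2 to ERK cascade, kinase targets and ETS partners, ERK output transcripts) up to 4 genes with the smallest p in a described contrast, by the brightest probe. For likeness, the 3 nearest named probes of other genes are given. Mid1, also in the naming rule, is not analysed here. Alternatives were no background correction, offset 16, median scaling, the authors' table, no filter, a filter at the 75th percentile, array weights, only the groups compared, and leaving out each sample. The steps were tested on simulated data.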

Additional observations from a re-analysis of the deposited data

How the results depend on the processing

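No paired analysis was run, because the groups share no replicate numbers and no label names pairs. Whether samples of the 2 arms at a time belong together in their order was not tested. The number of member probes past the threshold stayed at 0 in every alternative for the inhibitor differences at 24, 48 and 72 h, their mean over 48 and 72 h and the difference between 72 and 48 h. From 24 to 72 h under anti-miR-135b it was 2, and 1 with median scaling, where the Dusp4 probe ILMN_2689731 gave 1.27 with a limma adjusted p of 0.0503. Array weights and a fit of only the groups compared gave 3, and leaving out 1 sample gave 1 to 2. In controls from 24 to 48 h it was 0, and 1 with median scaling, that of Dusp6 ILMN_2925711. Over all probes, the calls from 24 to 72 h were 1025, against 377 with median scaling, 744 with no filter, 1521 with only the groups compared, 2178 with array weights and 25 to 677 with 1 sample left out. In controls from 24 to 48 h they were 119 (52.9% higher), against 1265 with median scaling (98.1% higher), 352 with array weights, 17 with only the groups compared and 19 to 119 with 1 sample left out. For the inhibitor differences, with 0 calls over all probes, array weights gave 8 in the mean, Rasa1 among them, and 2 at 72 h, and without replicate 14 of the 48 h anti-miR-135b samples there were 4 at 48 h and 6 in the mean. No background correction and the authors' table gave 2 at 72 h, and leaving out replicate 18 of the 72 h anti-miR-135b samples gave 1. Median scaling moved the median of all probes to -0.27 at 48 h, 0.12 at 24 h, 0.32 in controls from 24 to 48 h and 0.37 for the difference between times. Against that shift, signs turned at 48 h for Dusp4 ILMN_2689731 (-0.48) and ILMN_2870965 (-0.26), Etv4 (-0.0406) and Etv5 (-0.31), at 72 h for Dusp4 ILMN_2689731 (8e-04), Dusp6 ILMN_1248537 (0.34) and Etv5 (0.0317), and in the mean for Etv5 (-0.14). Array weights turned Etv5 to -0.24 at 48 h and -0.15 in the mean. In the authors' table Dusp6 ILMN_1248537 was 0.058 at 48 h, 0.050 at 72 h and 0.054 in the mean, and Spred2 was 0.0027 in the mean. With 1 sample left out, the ranges that crossed 0 were, at 48 h, -0.0153 to 0.47, -0.0394 to 0.24 and -0.0123 to 0.16 for the Dusp4 probes ILMN_2608995, ILMN_2689731 and ILMN_2870965, -0.33 to 0.27 for Dusp6 ILMN_1248537, -0.52 to 0.0543 for ILMN_2925711, -0.0091 to 0.79 for Etv4 and -0.0734 to 0.43 for Etv5. At 72 h they were -0.19 to 0.0923 for Dusp6 ILMN_1248537, -0.0648 to 0.17 for ILMN_2701321 and -0.43 to 0.17 for Etv5. In the mean they were -0.19 to 0.11 for Dusp6 ILMN_1248537, -0.11 to 0.19 for Etv5 and -0.0796 to 0.0467 for Spred2, and from 24 to 72 h -0.89 to 0.17 for Spred2. None of these differences had passed the threshold, and the cause was not tested. The Dusp4 differences of ILMN_2870965 from 24 to 72 h ranged from 1.24 to 1.56 with 1 sample left out and from 1.04 to 1.52 over the other alternatives. They passed in each alternative that left replicates in both groups. Where 1 sample was left in a group, it was assumed to vary like the other groups. Probes near the array median, as for Sprouty and Spred2, allow no statement on absence.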
